A study of Rattus norvegicus with 20 samples.

Results

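The genes described here were 8 genes commonly used to mark resident microglia: P2ry12, P2ry13, Gpr34, Csf1r, Tmem119, Sall1, Aif1 and Siglec5. The rule took them by name and used none of their values, though the names were picked with earlier results of these data known, and each name had 1 entry among the 30443 genes of the expression table. All 8 were among the 15210 genes kept because they reached 1 FPKM (sequenced fragments scaled to the length of the transcript and to the size of the library) in at least 1 library. Each of 4 animals gave tissue of 5 regions, and RNA sequencing of these made 20 libraries, 1 per region and animal. The animals were adult female wild-type Long-Evans rats of about 6 to 8 months. All 4, the controls included, carried a hemicontusion at cervical level 4 with a displacement of 0.7 mm, and 2 weeks later all had an array of electrodes implanted into the contralateral motor cortex. The 2 stimulated animals then received current for 1 week (5 h a day, 10 Hz, 80% of the movement threshold), and the 2 control animals were connected to the stimulator without current. Region 1 was the white matter under the array and region 2 the matching white matter of the other hemisphere. Region 3 was cord rostral to the injury, region 4 the injured level and region 5 cord caudal to it, each with gray and white matter. No uninjured animal and no animal without an array was analysed here, so every level is one measured after both operations. Nothing in the labels says that the animals were pooled, and with 2 animals per group the p-values for stimulation rest on the spread between 2 rats on each side.

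Microglia are the macrophages that reside in the parenchyma of the brain and spinal cord. They depend on signalling through Csf1r, the receptor of the cytokines Csf1 and Il34, and their surveying state is marked by purinergic receptors such as P2Y12, which senses ADP released by damaged cells and steers the processes towards it. In reactive microglia P2ry12 and Tmem119 are known to be lowered, while Aif1 (Iba1), which is shared with macrophages that enter from the blood, is usually raised. The libraries are from bulk tissue, in which fewer microglia and less RNA per cell cannot be told apart.

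Promoter sequences show where the transcription of these genes begins. RefSeq's table for the assembly GRCr8 held the promoters, 250 bases before to 50 bases after the start, of 4 of the 8 genes: P2ry13, Csf1r, Gpr34 and Siglec5. Capitals mark the letters GAGGAA, the core of the site bound by the myeloid factor PU.1, read on either strand (TTCCTC on the printed one).
P2ry13, chr2:145622735-145623034, minus strand: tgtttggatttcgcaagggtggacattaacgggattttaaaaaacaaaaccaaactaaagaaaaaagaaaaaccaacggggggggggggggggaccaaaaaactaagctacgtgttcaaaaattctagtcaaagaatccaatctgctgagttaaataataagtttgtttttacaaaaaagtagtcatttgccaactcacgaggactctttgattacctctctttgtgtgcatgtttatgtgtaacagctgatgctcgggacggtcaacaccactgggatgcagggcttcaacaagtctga
Csf1r, chr18:56834129-56834428, plus strand: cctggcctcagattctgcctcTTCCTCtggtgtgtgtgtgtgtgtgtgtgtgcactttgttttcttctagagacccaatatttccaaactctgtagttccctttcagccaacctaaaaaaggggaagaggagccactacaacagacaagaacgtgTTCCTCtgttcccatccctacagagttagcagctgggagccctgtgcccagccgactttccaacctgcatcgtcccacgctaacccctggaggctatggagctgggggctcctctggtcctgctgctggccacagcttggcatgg
Gpr34, chrX:11785787-11786086, minus strand: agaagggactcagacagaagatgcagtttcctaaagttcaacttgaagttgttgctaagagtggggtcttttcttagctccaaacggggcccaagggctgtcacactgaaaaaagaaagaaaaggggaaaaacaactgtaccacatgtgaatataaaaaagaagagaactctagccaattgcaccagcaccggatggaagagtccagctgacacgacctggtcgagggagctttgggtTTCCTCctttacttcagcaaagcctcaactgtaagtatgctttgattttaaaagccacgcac
Siglec5, chr1:102904656-102904955, plus strand: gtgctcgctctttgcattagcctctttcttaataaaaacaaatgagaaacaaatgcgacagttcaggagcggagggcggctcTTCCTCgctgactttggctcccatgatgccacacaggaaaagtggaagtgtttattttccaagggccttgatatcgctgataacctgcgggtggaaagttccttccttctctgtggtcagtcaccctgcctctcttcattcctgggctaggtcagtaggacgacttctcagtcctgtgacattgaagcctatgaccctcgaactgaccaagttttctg
The motif occurred 2 times in the Csf1r window, 229 and 95 bases before the start, and once each in those of Gpr34 (12 bases before) and Siglec5 (168 bases before). It was absent from the P2ry13 window, and 27.6% of all 33469 promoters held it, so its presence is not particular to these genes. Of 6 further motifs searched on both strands, TATAAA was found in Gpr34 (14.2% of all promoters), GGAAGT in Siglec5 (22.6%) and CAGACA in Csf1r and Gpr34 (21.1%). The composite PU.1 and IRF element (2.94%), TGANTCA (7.33%) and GTCTAGAC (0.197%) were in none of the 4 windows. None of the GAGGAA matches overlapped another of these motifs, and a match is a description of the sequence only.

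The libraries were first checked against their labelled tissue. The summed level of 6 cortical neuron genes, led by Slc17a7, Camk2a and Ddn, was 454 to 731 FPKM in the 8 white matter libraries and 5.97 to 25.9 FPKM in the 12 cord libraries. The 7 oligodendrocyte genes, Mbp and Cnp among them, summed to less in the white matter libraries (medians of 1466 against 8845 FPKM), so the blocks labelled white matter carried much RNA of cortical neurons. Of 8 spinal cord genes, 5 were listed at the table's floor of 0.1 FPKM in every white matter library and none was under 1 FPKM in all cord libraries. Microglial RNA was present in every library. Cx3cr1, the fractalkine receptor of microglia, lay between 11.4 and 51.3 FPKM. The 7 striatal neuron genes (Penk and Ppp1r1b among them) summed to 171 FPKM in region 1 of stimulated animal 1 and to between 41.9 and 68.1 FPKM in the other 7 white matter libraries.

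The region 2 library of stimulated animal 2 stood apart from the other 3 of its region for these genes, and markers of other immune cells were high in the same animal. Border macrophage genes (9 in the table, led by Cd74, Pf4 and Mrc1) summed to 402 FPKM there, of which Cd74 made 384, and to 6.52 to 9.30 FPKM in the other 3 libraries of region 2. Monocyte and neutrophil genes (10, led by Plac8, S100a9 and S100a8) summed to 114 against 1.92 to 4.25 FPKM, with 2 of the 10 at the floor in all 4 libraries. Plac8 made 100 of the 114 FPKM, with S100a9 at 5.11 and S100a8 at 3.13 FPKM. Lymphocyte genes (10, led by Cd4, Cd8a and Cd2) summed to 28.7 against 1.54 to 2.87 FPKM, of which Cd4 made 18.75, Cd8a 4.20 and Cd2 0.779. A sum made mostly of Cd4 does not by itself show that lymphocytes were present. Each of these sums thus rested mostly on 1 gene. In region 1 of this animal the 3 sums were 214, 159 and 50.7 FPKM, against at most 35.8, 15.8 and 14.4 FPKM in the other 3 animals. The largest parts were Cd74 (118), S100a9 (77.4) and Cd4 (30.0). White matter against cord, region 1 against region 2, their list counts and the correlations are therefore given with and without this library. The tests among cord levels took their spread from all 20 libraries, this one included. They were not refitted without this library alone. The part of immune cells other than microglia in the results was not tested.

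The 8 genes covered a wide range of levels per length. Csf1r was highest, with a mean of 49.0 FPKM over the 20 libraries, followed by Aif1 (41.6), Gpr34 (22.7), P2ry12 (21.0), Sall1 (8.85), Tmem119 (6.42), P2ry13 (4.90) and Siglec5 (0.970). Siglec5 reached 1 FPKM in only 9 of the 20 libraries, and its values are the least certain, both for their level and because it belongs to a family of similar lectins.

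P2ry12 (ENSRNOG00000013902) encodes the ADP receptor of surveying microglia. In region 1 it was at 17.1 and 16.3 FPKM in control animals 1 and 2 and at 18.8 and 14.6 FPKM in stimulated animals 1 and 2, the order used throughout. In region 2 the values were 12.0, 10.2, 10.4 and 25.5 FPKM. The fourth value lay above every region 1 value and the other 3 below them. Cord rostral to the injury held 22.0, 15.6, 19.4 and 13.03 FPKM, the injured level 32.5, 26.1, 31.8 and 19.3 FPKM, and caudal cord 32.9, 31.3, 26.4 and 25.4 FPKM. All 4 caudal values lay above all 4 rostral ones, while the injured level overlapped both.

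P2ry13 (ENSRNOG00000029756), a related ADP receptor that sits beside P2ry12 in the genome, was at 3.80, 4.71, 4.28 and 4.25 FPKM in region 1. Its region 2 values were 2.80, 2.89, 2.66 and 7.17 FPKM, again with stimulated animal 2 alone high. The 3 cord levels held 5.64, 4.08, 3.33 and 3.02 FPKM (rostral), 7.09, 7.05, 6.24 and 5.52 FPKM (injured) and 5.82, 6.87, 5.23 and 5.60 FPKM (caudal). Only the rostral library of control animal 1 reached into the range of the other cord levels. The ratio of P2ry12 to P2ry13 stayed between 3.44 and 5.83 in all 20 libraries.

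Gpr34 (ENSRNOG00000039759), a receptor for lysophosphatidylserine, was at 12.3, 16.4, 19.7 and 11.8 FPKM in region 1 and at 7.84, 9.13, 8.42 and 17.1 FPKM in region 2. In the cord it was at 18.1, 19.3, 21.0 and 13.9 FPKM rostrally, at 44.0, 38.7, 42.6 and 25.5 FPKM at the injured level and at 28.4, 36.1, 30.6 and 32.3 FPKM caudally. Every value of the injured and caudal levels exceeded every rostral value, and the injured and caudal levels overlapped through the low library of stimulated animal 2.

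Csf1r (ENSRNOG00000018414) was at 39.0, 31.4, 49.7 and 63.0 FPKM in region 1. Region 2 held 16.5, 13.7, 15.7 and 70.6 FPKM, with stimulated animal 2 far above the other 3. Cord values were 41.2, 26.6, 36.0 and 28.3 FPKM rostrally, 97.4, 65.4, 93.0 and 54.5 FPKM at the injured level, and 63.9, 53.6, 57.3 and 62.3 FPKM caudally. Neither the injured nor the caudal level overlapped the rostral one.

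Tmem119 (ENSRNOG00000000700), a transmembrane protein of microglia that blood-derived macrophages largely lack, was at 3.74, 2.98, 5.20 and 3.85 FPKM in region 1 and at 3.27, 2.65, 3.56 and 5.98 FPKM in region 2. Rostral, injured and caudal cord held 6.73, 4.11, 7.76 and 6.26 FPKM, then 9.59, 5.76, 11.9 and 7.55 FPKM, then 9.42, 6.79, 10.8 and 10.5 FPKM. The cord levels overlapped one another, and control animal 2 was lowest in each of the 5 regions.

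Sall1 (ENSRNOG00000013907), a transcriptional repressor that holds microglia in their resting identity, was at 4.23, 4.38, 6.02 and 3.23 FPKM in region 1 and at 2.69, 2.34, 2.63 and 6.73 FPKM in region 2. It was at 10.9, 7.30, 9.14 and 8.47 FPKM in rostral cord, at 15.2, 12.5, 15.7 and 14.1 FPKM at the injured level and at 14.6, 11.0, 12.5 and 13.5 FPKM caudally. This was the only one of the 8 genes with every white matter value below every cord value.

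Aif1 (ENSRNOG00000000853), the actin-binding protein Iba1, was at 29.9, 26.8, 42.1 and 70.4 FPKM in region 1 and at 11.2, 9.70, 11.4 and 77.2 FPKM in region 2. In the cord it was at 32.0, 23.3, 29.2 and 21.7 FPKM rostrally, 84.7, 57.7, 74.7 and 40.5 FPKM at the injured level, and 50.8, 41.9, 45.6 and 50.5 FPKM caudally. Both white matter libraries of stimulated animal 2 reached the range of the injured cord, which no other white matter library did except, at its lower end, region 1 of stimulated animal 1.

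Siglec5 (ENSRNOG00000021474), an inhibitory lectin that binds sialic acid, was at 0.555, 1.06, 0.880 and 1.14 FPKM in region 1 and at 0.249, 0.507, 0.197 and 0.534 FPKM in region 2. The cord held 0.666, 1.12, 0.649 and 0.510 FPKM rostrally, 1.42, 2.67, 1.31 and 1.05 FPKM at the injured level and 0.880, 2.01, 1.06 and 0.930 FPKM caudally. Control animal 2 was highest at each cord level. In region 2 the library of stimulated animal 2 lay close to that of control animal 2.

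**Figure D1:**
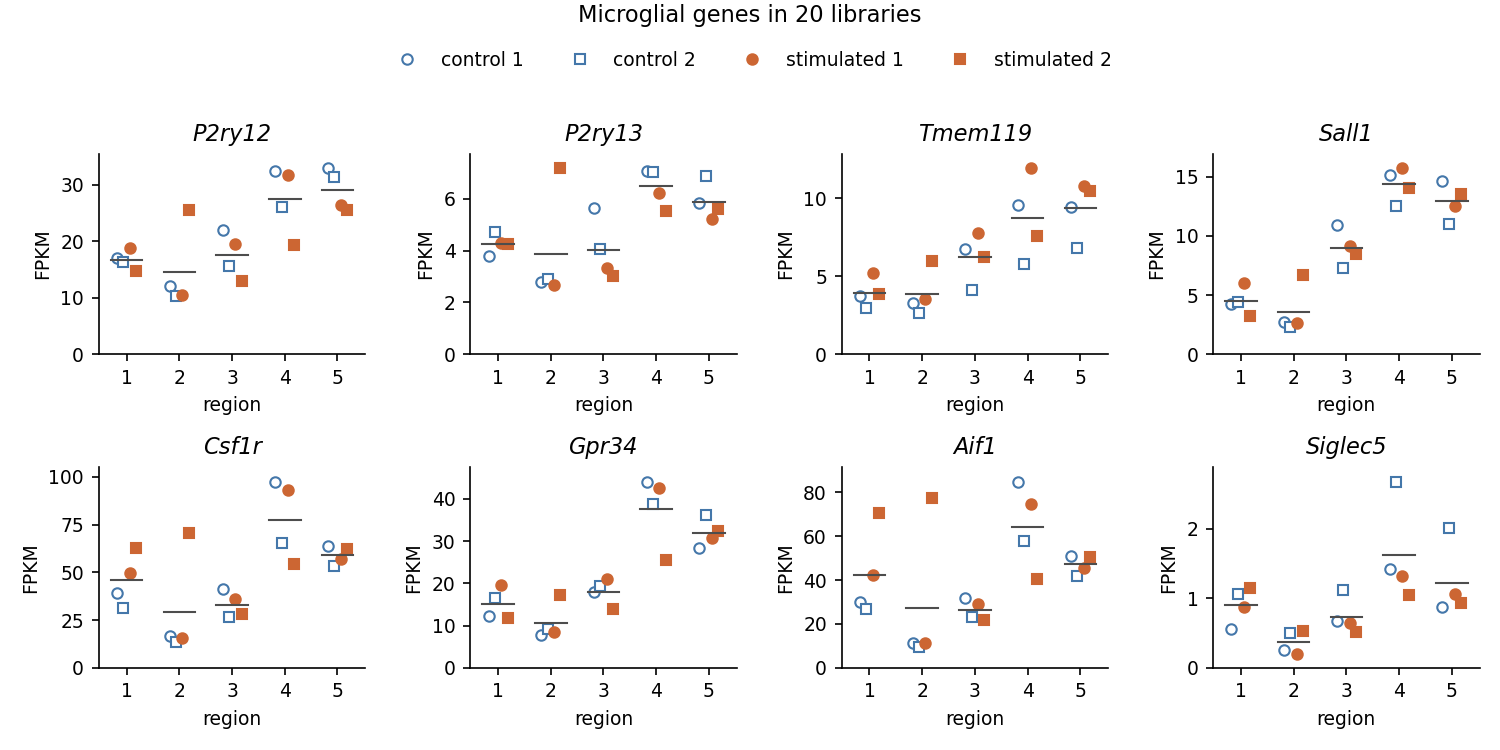
FPKM (linear axis from 0) of the 8 genes in every library by region, with 1 point per animal and a horizontal bar at the mean of the 4 libraries. The region 2 point of stimulated animal 2 lies far above the other 3 for Csf1r (70.6 against 13.7 to 16.5 FPKM) and Aif1 (77.2 against 9.70 to 11.4 FPKM), and region 4 or 5 holds the highest mean for all 8 genes.

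Ordered by the means of the regions, region 4 was highest and region 5 next for 6 of the 8 genes. P2ry12 and Tmem119 had the order reversed, with means of 27.4 ± 6.09 FPKM in region 4 and 29.0 ± 3.64 FPKM in region 5 for P2ry12 (SD, n = 4). Regions 4 and 5 overlapped for every gene, as did most neighbours in each order. The exceptions were region 5 against the next region for P2ry13, Sall1 and Gpr34, and region 3 against region 1 for Sall1. Region 2 was lowest for 7 genes, and region 3 for Aif1, where region 2 held the high library of stimulated animal 2.

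White matter and spinal cord were compared to ask how the microglial genes differ between the brain and cord samples. All 8 genes were lower in white matter in limma's test over all 20 libraries, in which 47.1% of all genes tested were lower, 25% higher and 72.2% called in all (3808 higher and 7169 lower, or 5054 and 6018 after quantile normalization and 4707 and 6605 after upper-quartile scaling). At an unadjusted p under 0.05 the share of all genes was 74.2%. With this share among all genes, the count alone says little of the 8. Their log2 differences had a median of -0.85, against -0.18 over all genes. Sall1 differed by -1.64 on the log2 scale (SE 0.16, adjusted p = 2.97e-08). It was at 4.03 ± 1.63 FPKM in white matter (SD, 8 libraries) and 12.1 ± 2.74 FPKM in cord (12 libraries), all from the same 4 animals. These SDs hold differences between regions as well as between animals. The fit had no term for the animal, so its p-values treat libraries of the same animal as independent. Gpr34 differed by -1.18 (SE 0.15, adjusted p = 7.58e-07) and Tmem119 by -1.04 (SE 0.17, adjusted p = 1.95e-05). For Siglec5 the difference was -0.97 (SE 0.24, adjusted p = 0.00151). It was -0.66 for P2ry12 (SE 0.15, adjusted p = 0.000793) and -0.45 for P2ry13 (SE 0.16, adjusted p = 0.0165). The cytokine receptor Csf1r differed by -0.74 (SE 0.24, adjusted p = 0.0104) and Aif1 by -0.69 (SE 0.31, adjusted p = 0.0499), just inside the threshold of 0.05. Only Sall1 had groups that did not overlap, as 27.1% of all genes did, 16.8% in this direction and 10.3% in the other.

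The calls for P2ry13, Csf1r and Aif1 depended on the animals included. Without control animal 1, control animal 2 or stimulated animal 1, 5 genes were called lower (P2ry12, Tmem119, Sall1, Gpr34 and Siglec5), and without stimulated animal 2, or without its region 2 library alone, all 8 were. The share of all genes called without a whole animal is not given here. Over the 14 alternatives the adjusted p ran up to 0.183 for P2ry13 and 0.137 for Csf1r. Aif1 kept its call in 5 of the 14 (adjusted p from 3.42e-07 to 0.353) and lost it after quantile normalization and upper-quartile scaling among others.

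Of 20 other genes known from resting microglia, 12 were lower and 1 higher in white matter. Among those with the highest levels were Bin1, a membrane-bending protein also made by oligodendrocytes and neurons (-0.75, SE 0.07, adjusted p = 3.99e-08) and Arhgap5 (-0.01, SE 0.09, adjusted p = 0.916). The median of the list was -0.75 against -0.18 over all genes. Among 15 genes of activated microglia 11 were lower and 1 higher (median -1.12). Of 14 pan-myeloid genes, led by Ctss, C1qa and C1qb, 8 were lower, and of 9 border macrophage genes 3 were. In the remaining immune lists 1 of 8 monocyte and neutrophil genes was lower and 1 of 6 lymphocyte genes higher, and of 8 proliferation genes 4 were lower. In the marker lists of other cells, 6 of 6 cortical neuron genes were higher, 7 of 7 oligodendrocyte genes and 8 of 8 spinal cord genes were lower, and of 7 astrocyte genes 5 were lower, Gfap and S100b among them, and 2 higher, Slc1a2 among them. Striatal neuron genes divided into 4 higher and 2 lower of 7. Without the region 2 library of stimulated animal 2, the lower genes numbered 16 of 20 for other resting microglia genes (none higher), 13 of 15 for activated, 12 of 14 for pan-myeloid, 4 of 9 for border macrophage, 2 of 8 for monocyte and neutrophil and 7 of 8 for proliferation genes, and no lymphocyte gene was called, while 49.8% of all genes were lower. The counts of the neuron, oligodendrocyte, spinal cord and astrocyte lists were the same without it. The part of this different make-up of the blocks in the differences above was not tested.

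The ligands of Csf1r went in opposite directions. Csf1 was lower in white matter, by -2.11 (SE 0.25, adjusted p = 4.32e-07). Il34, a ligand made by neurons and named here after its values were seen, was higher there, by 0.99 (SE 0.08, adjusted p = 4.02e-09). Among 12 genes of Csf1r signalling, led by Tyrobp, Grb2 and Csf1, 2 were higher and 3 lower. The adaptor Tyrobp was lower, by -1.32 (SE 0.36, adjusted p = 0.00287), and the adaptor Grb2 higher, by 0.23 (SE 0.06, adjusted p = 0.00303). In the list of 12 microglial transcription factors 3 were higher and 6 lower. Mef2c, which cortical neurons also express, was higher by 3.89 (SE 0.09, adjusted p = 1.82e-17) and Mef2a by 0.69 (SE 0.06, adjusted p = 1.64e-08), and Irf8, a myeloid factor, differed by -1.13 (SE 0.36, adjusted p = 0.00849). Of 11 genes of purine signalling 6 were lower, among them the adenosine receptor Adora1 (-0.56, SE 0.07, adjusted p = 7.27e-07) and the ATP-hydrolysing enzyme Entpd2 (-0.60, SE 0.11, adjusted p = 0.000119). Without the region 2 library of stimulated animal 2, 6 Csf1r signalling genes, 7 transcription factors and 9 purine signalling genes were lower, with 2, 3 and 0 higher.

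Some of the 8 genes overlap the span of another gene in RefSeq's annotation: P2ry12 and P2ry13 that of Med12l, Gpr34 that of Cask, and Sall1 that of an uncharacterised locus. The strand setting of the counting is not given in the sources used here, so reads of the partners may have been shared. Med12l differed by -0.25 between white matter and cord (SE 0.06, adjusted p = 0.00223) and Cask by 0.36 in the opposite direction (SE 0.07, adjusted p = 0.000101). Between regions 4 and 3, Med12l and Cask differed by -0.27 (adjusted p = 0.0596) and -0.17 (adjusted p = 0.281), where P2ry13 and Gpr34 were higher.

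The injured level was compared with rostral cord to ask how the genes behave along the cord. P2ry13, Csf1r, Gpr34 and Siglec5 were higher at the injury, 4 of the 8, while 6.78% of all genes tested were higher, 12.8% lower and 19.6% called in all (1031 higher and 1953 lower, or 1925 and 2917 after quantile normalization and 2115 and 2487 after upper-quartile scaling). Gpr34 rose by 1.05 on the log2 scale (SE 0.23, adjusted p = 0.00408), from 18.1 ± 3.02 to 37.7 ± 8.45 FPKM (SD, n = 4). Csf1r rose by 1.21 (SE 0.37, adjusted p = 0.0296), from 33.0 ± 6.80 to 77.6 ± 20.9 FPKM, and Siglec5 by 1.10 (SE 0.38, adjusted p = 0.0470). P2ry13 rose by 0.72 (SE 0.24, adjusted p = 0.0447). The other 4 genes did not pass the adjusted threshold. Their differences were 1.24 for Aif1 (SE 0.47, adjusted p = 0.0712), 0.69 for Sall1 (SE 0.25, adjusted p = 0.0588), 0.64 for P2ry12 (SE 0.24, adjusted p = 0.0633) and 0.47 for Tmem119 (SE 0.26, adjusted p = 0.210). All SEs here rest on the spread within regions over all 20 libraries, the region 2 library of stimulated animal 2 included. Aif1 was at 77.2 FPKM in that library, against 9.70 to 11.4 FPKM in region 2 of the other animals. The part of that library in the SEs was not tested. At an unadjusted p under 0.05, 7 of the 8 passed, as did 34.7% of all genes.

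Within each animal the direction was the same. All 8 genes were higher at the injured level than rostrally in all 4 animals, as were 24.1% of all genes tested, and the median ratio over the 8 genes was 1.81 and 1.87 in the control animals and 1.95 and 1.83 in the stimulated animals. The ratios of Aif1 were 2.64, 2.48, 2.56 and 1.87, and those of Tmem119 were 1.43, 1.40, 1.53 and 1.21. Sall1, Csf1r, Gpr34 and Aif1 had levels that did not overlap between the regions, as 28.8% of all genes did in either direction and 13% in this one. With the animal as a block in the fit 5 genes were called, Tmem119 being added (adjusted p = 0.0445, the lowest over 13 alternatives, of which the highest gave 0.434).

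The number of calls depended on the animals and on the scaling. No gene was called without control animal 1 or without control animal 2, 1 (Gpr34) without stimulated animal 1 and 6 without stimulated animal 2, where P2ry12, Sall1 and Aif1 passed and Siglec5 did not. In the control animals alone P2ry12, Csf1r, Gpr34 and Aif1 were called. Quantile normalization and upper-quartile scaling each called 7, all but Tmem119. No control library was from uninjured cord, so this is a comparison of levels within injured animals.

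Genes of activated microglia were higher at the injured level in 13 of 15 cases (median 1.47 against -0.02 over all genes). They were led by Apoe, which rose by 1.29 (SE 0.25, adjusted p = 0.00174), and the lysosomal proteases Ctsb (1.41, SE 0.28, adjusted p = 0.00243) and Ctsd (1.47, SE 0.24, adjusted p = 0.000609). Other genes of resting microglia were higher in 13 of 20 cases (median 0.93). Neither Bin1 (-0.13, SE 0.12) nor Arhgap5 (-0.14, SE 0.13) passed. Of the 12 Csf1r signalling genes 8 were higher, Tyrobp by 1.69 (SE 0.55, adjusted p = 0.0392). Neither ligand passed, with 0.44 for Csf1 (SE 0.39, adjusted p = 0.453) and -0.16 for Il34 (SE 0.13, adjusted p = 0.410). Transcription factors were higher in 7 of 12 cases, Irf8 by 1.82 (SE 0.56, adjusted p = 0.0290), and purine signalling genes in 4 of 11, among them the ATP-gated channel P2rx4 (0.96, SE 0.31, adjusted p = 0.0400).

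Markers of other immune cells were called in part. Of 14 pan-myeloid genes 5 were higher and of 9 border macrophage genes 2, of 8 monocyte and neutrophil genes 1 and of 6 lymphocyte genes 1. Their summed levels were 625 to 1323 FPKM in region 4 against 291 to 454 FPKM in region 3 for the pan-myeloid list, and 58.8 to 106 against 25.1 to 59.1 FPKM for border macrophages. For monocytes and neutrophils they were 8.01 to 37.4 against 11.5 to 19.3 FPKM, and for lymphocytes 10.4 to 41.7 against 2.07 to 10.9 FPKM, with 6 of the 10 lymphocyte genes at the floor in every region 4 library. Cd4 alone held 6.53 to 33.0 FPKM in region 4 and 1.17 to 9.93 FPKM in region 3, so the lymphocyte sums do not by themselves show lymphocytes. Proliferation genes, led by Aurkb, Top2a and Ccnb1, were higher in 2 of 8 cases. Cortical neuron genes were lower in 4 of 6 cases, spinal cord genes in 3 of 8 with 1 higher, and no oligodendrocyte, astrocyte or striatal neuron gene was called. The part of entering cells and of a changed tissue make-up in the rise of the 4 genes was not tested.

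**Figure D2:**
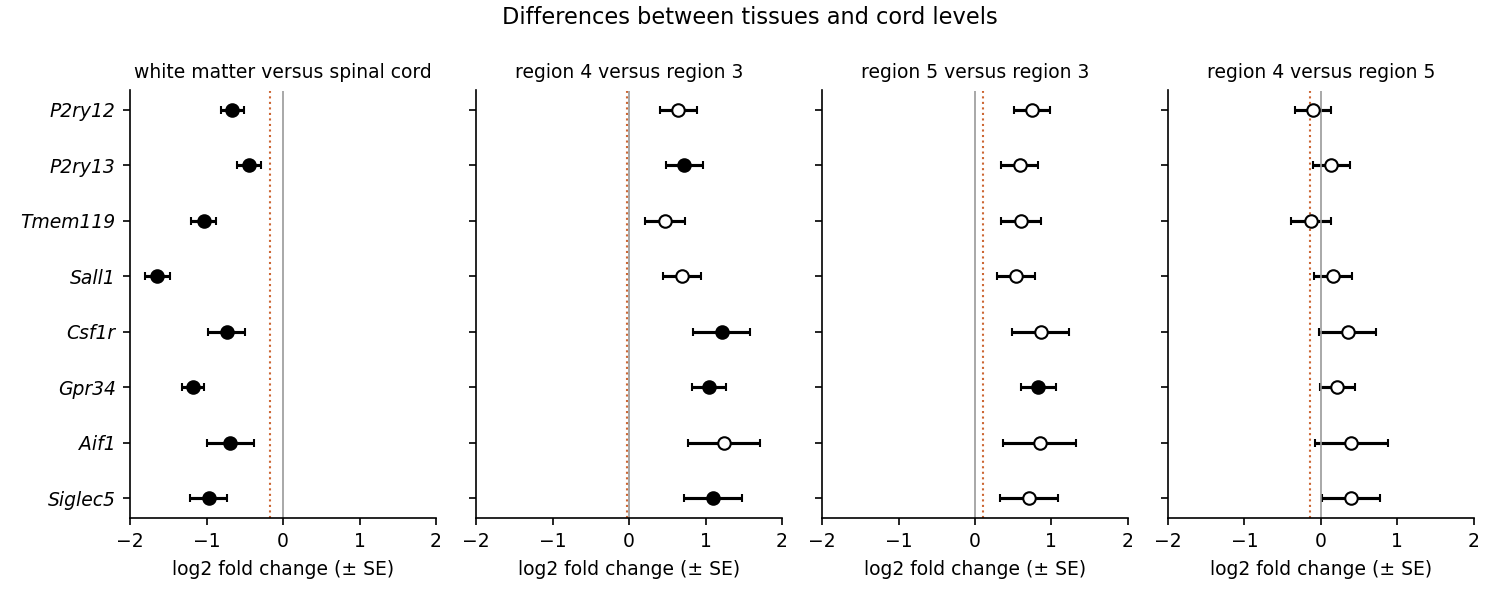
Log2 fold change with SE from limma for each of the 8 genes in 4 comparisons of regions, with filled points where the adjusted p was under 0.05 and a dotted line at the median of all genes tested. All 8 points of white matter against cord are filled and below 0, 4 are filled above 0 for region 4 against region 3, 1 is filled for region 5 against region 3, and none for region 4 against region 5.

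Caudal cord was also compared with rostral cord. Gpr34 was the single gene that passed, with a rise of 0.83 (SE 0.23, adjusted p = 0.0455), while 2.77% of all genes tested were higher, 1.55% lower and 4.32% called in all (422 higher and 235 lower, or 435 and 674 after quantile normalization and 419 and 751 after upper-quartile scaling). The other 7 differences lay between 0.54 for Sall1 and 0.86 for Csf1r, against a median of 0.11 over all genes, and 6 of the 8 genes had an unadjusted p under 0.05, as had 24.7% of all genes. P2ry12 stood at 29.0 ± 3.64 FPKM caudally and 17.5 ± 3.96 FPKM rostrally (SD, n = 4), a difference of 0.75 (SE 0.24, adjusted p = 0.0795). All 8 genes were higher caudally in all 4 animals, as were 31.9% of all genes. The groups did not overlap for P2ry12, Sall1, Csf1r, Gpr34 and Aif1, as for 25.5% of all genes in either direction and 20.5% in this one. With the animal as a block 2 genes were called, Gpr34 and Tmem119. Gpr34 was not called without control animal 1, control animal 2 or stimulated animal 1, and without stimulated animal 2 P2ry12, Csf1r and Aif1 were called beside it. The share of all genes called in these fits is not given here. Of the 20 other resting microglia genes none was called and 13 had an unadjusted p under 0.05, and of the 15 activated genes 2 were called higher.

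Between the injured and the caudal level limma called none of the 8 genes, and none had an unadjusted p under 0.05 (29% of all genes had), while 7.99% of all genes tested were called, 0.934% higher and 7.06% lower (142 and 1074, or 195 and 275 after quantile normalization and 329 and 299 after upper-quartile scaling). The differences ran from -0.13 for Tmem119 (SE 0.26) to 0.40 for Aif1 (SE 0.47), against a median of -0.14 over all genes. The signs of P2ry12 and Tmem119 turned under other scalings. In stimulated animal 2 only 2 of the 8 genes were higher at the injured level, against 7, 6 and 8 in the other animals. The median ratio over all genes was also lowest in this animal, at 0.771 against 0.906, 0.945 and 1.01. The median of the 8 genes there was 0.837, against 1.37, 1.10 and 1.25 in the other animals. How far their count follows the shift of all genes was not tested. Of the 15 activated genes 1 was called higher and 8 had an unadjusted p under 0.05. None of 20 other resting microglia genes was called.

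The white matter under the array was compared with that of the other hemisphere, which had no array. In control animals 1 and 2 and stimulated animal 1, all 8 genes were higher under the array, with median ratios of 1.57, 1.84 and 2.31. In stimulated animal 2 only Siglec5 was, and the median ratio was 0.668. The ratios of Aif1 were 2.68, 2.77, 3.70 and 0.912, those of Csf1r 2.37, 2.29, 3.16 and 0.892, and those of P2ry12 1.42, 1.60, 1.80 and 0.575. Siglec5 had ratios of 2.23, 2.09, 4.47 and 2.14, and 22.2% of all genes were higher under the array in all 4 animals. The median ratio over all genes tested lay between 0.905 and 1.12.

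**Figure D3:**
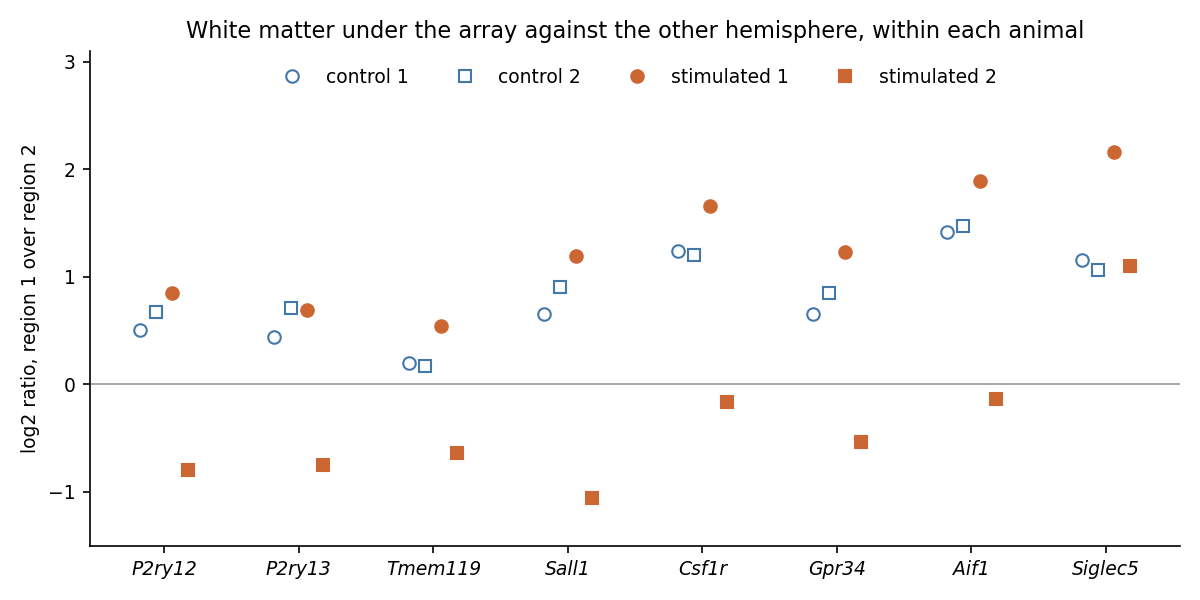
Log2 ratio of the FPKM under the array (region 1) to that in the other hemisphere (region 2) for each gene and animal, with open symbols for controls and filled symbols for stimulated animals. The points of both controls and stimulated animal 1 are above 0 for all 8 genes, and those of stimulated animal 2 are below 0 for all but Siglec5.

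In limma's test only Siglec5 passed, higher by 1.37 (SE 0.38, adjusted p = 0.0322), while 6.86% of all genes tested were higher, 1.76% lower and 8.61% called in all (1043 higher and 267 lower, or 943 and 841 after quantile normalization and 1316 and 930 after upper-quartile scaling). Its 4 values under the array, 0.555 to 1.14 FPKM, did not overlap those of region 2, 0.197 to 0.534 FPKM, as for 7.57% of all genes in either direction and 4.4% in this one. Most of these values are under 1 FPKM. The call was lost with log2(FPKM + 1), with a floor of 0.5 FPKM, without the filter on low values and after quantile normalization. It was lost as well without control animal 1, control animal 2 or stimulated animal 1. Aif1 (1.16, SE 0.47, adjusted p = 0.134), Csf1r (0.98, SE 0.37, adjusted p = 0.106) and Gpr34 (0.55, SE 0.23, adjusted p = 0.138) had an unadjusted p under 0.05 only, as had 25.2% of all genes with the called ones included.

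Without the region 2 library of stimulated animal 2, an alternative chosen after its values were seen, 7 of the 8 genes were called higher under the array, all but Tmem119. Aif1 then differed by 1.87 and Csf1r by 1.54, Sall1 by 0.77, Gpr34 by 0.80, P2ry12 by 0.62, P2ry13 by 0.61 and Siglec5 by 1.59. In the control animals alone 3 were called, Csf1r, Gpr34 and Aif1, and the share of all genes in that fit is not given here. Of the activated genes 13 of 15 were higher under the array with all libraries (median 1.69), against 4 of 20 other resting microglia genes (median 0.59) and 1 of 14 pan-myeloid genes (median 1.68). Of the other lists, 5 of 7 oligodendrocyte, 2 of 7 astrocyte, 2 of 9 border macrophage and 1 of 6 lymphocyte genes were higher, and 2 of 8 spinal cord genes. No monocyte and neutrophil, cortical, striatal, proliferation or transcription factor gene was called, and 2 of 12 Csf1r signalling genes and 2 of 11 purine genes were. Without the region 2 library of stimulated animal 2, 20% of all genes were higher under the array. The higher genes then numbered 15 of 15 for activated microglia, 14 of 20 for other resting microglia genes, 14 of 14 for pan-myeloid genes, 8 of 12 for Csf1r signalling, 9 of 12 for transcription factors and 7 of 11 for purine signalling. For border macrophages they numbered 6 of 9, for monocytes and neutrophils 1 of 8, for lymphocytes 2 of 6 and for proliferation 7 of 8. For oligodendrocytes the count was 6 of 7, for astrocytes 3 of 7 and for spinal cord genes 2 of 8, and 1 of 6 cortical neuron genes was lower. The blocks of regions 1 and 2 thus differed in oligodendrocyte RNA too, with sums of 1525 to 2982 against 721 to 1406 FPKM, whose part was not tested.

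Ratios between the genes within a library do not depend on the total amount of RNA and describe how the genes moved against one another. Aif1 over P2ry12 was 2.32 ± 0.223 at the injured level, 1.53 ± 0.0926 rostrally and 1.65 ± 0.275 caudally (SD, n = 4). All 4 values at the injured level (2.09 to 2.61) lay above all of the other 8 cord values (1.34 to 1.99). Csf1r over P2ry12 had the same shape, with 2.81 ± 0.217 at the injured level against 1.90 ± 0.194 rostrally and 2.07 ± 0.316 caudally. In region 2 the ratio of Aif1 to P2ry12 was 0.930 to 1.09 in 3 animals and 3.03 in stimulated animal 2, and in region 1 this animal had the highest ratio of all 20 libraries, 4.81. Its high region 2 values were thus not in 1 proportion over the 8 genes.

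**Figure D4:**
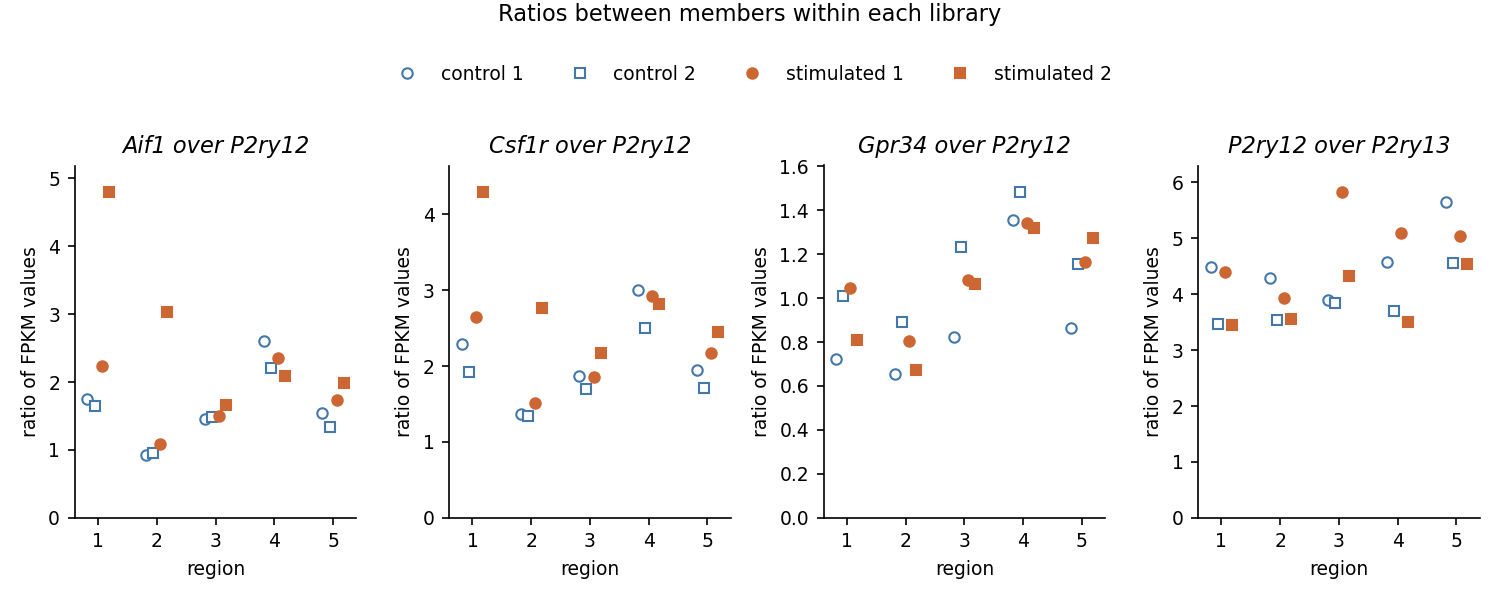
Ratios of FPKM values between pairs of the genes in each library by region, on linear axes from 0, with 1 point per animal. Aif1 over P2ry12 and Csf1r over P2ry12 are higher in all 4 libraries of region 4 than in any of region 3, and both are highest in region 1 of stimulated animal 2 (4.81 and 4.30), while P2ry12 over P2ry13 stays between 3.44 and 5.83.

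Aif1 and Csf1r kept closer together. Their ratio was between 0.743 and 0.882 in the 12 cord libraries and between 0.677 and 1.12 in the 8 white matter libraries, with the highest values in the libraries of stimulated animal 2. Sall1 over P2ry12 separated the tissues, with 0.253 ± 0.0324 in white matter and 0.504 ± 0.0974 in cord (SD, 8 and 12 libraries) and ranges of 0.220 to 0.320 and 0.351 to 0.727. Sall1 is not restricted to microglia in every tissue, and which cells carried its RNA in the cord cannot be told from bulk libraries. Gpr34 over P2ry12 was 1.32 to 1.48 at the injured level and 0.822 to 1.23 rostrally, without overlap. Tmem119 over P2ry12 showed no such separation, with 0.321 ± 0.0783 at the injured level and 0.362 ± 0.0972 rostrally.

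Over the 12 cord libraries the log2 levels of the 28 pairs of genes had a median Pearson r of 0.787, from -0.0569 for Tmem119 and Siglec5 to 0.992 for Csf1r and Aif1. Over the 8 white matter libraries the median was 0.800, from 0.162 for Tmem119 and Siglec5 to 0.994 for Csf1r and Aif1, and without the region 2 library of stimulated animal 2 it was 0.796, from 0.234 to 0.993 for the same pairs. These are descriptions without a test, since libraries of 1 animal and of 1 region share their source. The genes most like the mean of the 8, by Pearson r over the 20 libraries after the mean of each tissue was removed and among genes with a mean of at least 5 FPKM, were Cx3cr1 (0.979), Npc2 (0.976), Tmem176b (0.974), Blnk (0.973), Tmem176a (0.970), Anxa3 (0.966), Slco2b1 (0.964), Cd84 (0.961), Man2b2 (0.959) and Slc2a5 (0.959). Over the 19 libraries without region 2 of stimulated animal 2, the r of these 10 genes lay between 0.951 for Slc2a5 and 0.981 for Cx3cr1. Cx3cr1, Slco2b1 and Slc2a5 are in the list of other resting microglia genes.

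Stimulated and control animals were compared within each region to ask whether the current changed these genes. Limma called none of the 8 in any region. In simulated data the fit for region 1 recovered 0 of 200 genes changed by 1 on the log2 scale. A missing call therefore does not show that a gene was unchanged. Over all genes tested, 0% were called in regions 1, 2, 3 and 4, and 0.0197% in region 5 (3 genes, 0.00657% higher and 0.0131% lower). At an unadjusted p under 0.05, region 1 had 2 of the 8 genes (5.44% of all genes), regions 3 and 5 had 1 each (3.43% and 3.59%), and regions 2 and 4 had 0 (1.41% and 2.24%).

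Under the array, Aif1 was at 42.1 and 70.4 FPKM in the stimulated animals and 29.9 and 26.8 FPKM in the controls, a difference of 0.94 (SE 0.29, unadjusted p = 0.0335, adjusted p = 0.712). Csf1r was at 49.7 and 63.0 against 39.0 and 31.4 FPKM, a difference of 0.68 (SE 0.19, unadjusted p = 0.0263, adjusted p = 0.712). For both, and for Tmem119, the stimulated values lay above the control values, as for 21.2% of all genes. P2ry12 differed by only -0.01 (SE 0.16), P2ry13 by 0.01 (SE 0.18) and Sall1 by 0.03 (SE 0.35). The sums of border macrophage genes, 35.8 and 214 FPKM in the stimulated and 35.2 and 15.3 FPKM in the control animals, and of monocyte and neutrophil genes, 7.42 and 159 against 15.8 and 2.69 FPKM, were high in stimulated animal 2 only, and their part in the values was not tested. In the same region 10 of 15 activated genes, 5 of 20 other resting microglia genes and 4 of 14 pan-myeloid genes had an unadjusted p under 0.05, and none was called. For Csf1r signalling the number was 2 of 12, for transcription factors 3 of 12 and for purine signalling 3 of 11.

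In region 2 the differences were large and uncertain. Aif1 differed by 1.51 (SE 1.04) and Csf1r by 1.15 (SE 0.82), since only stimulated animal 2 was high. Stimulated animal 1 lay between the controls for Csf1r and just above them for Aif1 (11.4 against 11.2 and 9.70 FPKM). Without stimulated animal 1, the single remaining stimulated library, assumed to vary like the controls, gave a difference of 2.89 and a call for Aif1, and without stimulated animal 2 none of the 8 was called. Tmem119 and Aif1 had stimulated values above both controls, as 20.2% of all genes did. The effect in region 1 minus that in region 2 was called for none of the 8 by limma, nor was any at an unadjusted p under 0.05, with 0% of all genes called and 1.64% at an unadjusted p under 0.05. It lay between -0.71 for Sall1 (SE 0.51) and 0.52 for Siglec5 (SE 0.77), and 6 of its signs turned without the region 2 library of stimulated animal 2.

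In the cord P2ry13 was lower in the stimulated animals at each level without overlap, by -0.60 rostrally (SE 0.20, unadjusted p = 0.0477, adjusted p = 0.956), -0.27 at the injured level (SE 0.14, adjusted p = 1) and -0.22 caudally (SE 0.14, adjusted p = 1). Siglec5 did not overlap either in region 3 (-0.58, SE 0.32) and region 4 (-0.73, SE 0.37). For these levels 24.7%, 7.69% and 6.07% of all genes were lower without overlap. P2ry12 in caudal cord was at 26.4 and 25.4 FPKM in stimulated and 32.9 and 31.3 FPKM in control animals, a difference of -0.31 (SE 0.08, unadjusted p = 0.0171, adjusted p = 1). Tmem119 was the one gene with a positive difference in all 5 regions, from 0.35 at the injured level (SE 0.37) to 0.65 in region 2 (SE 0.33), and its stimulated values exceeded both control values in regions 1, 2 and 5. In region 5, 18.5% of all genes were higher without overlap, and the 5 regions are from the same 4 animals, so they do not repeat the comparison.

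**Figure D5:**
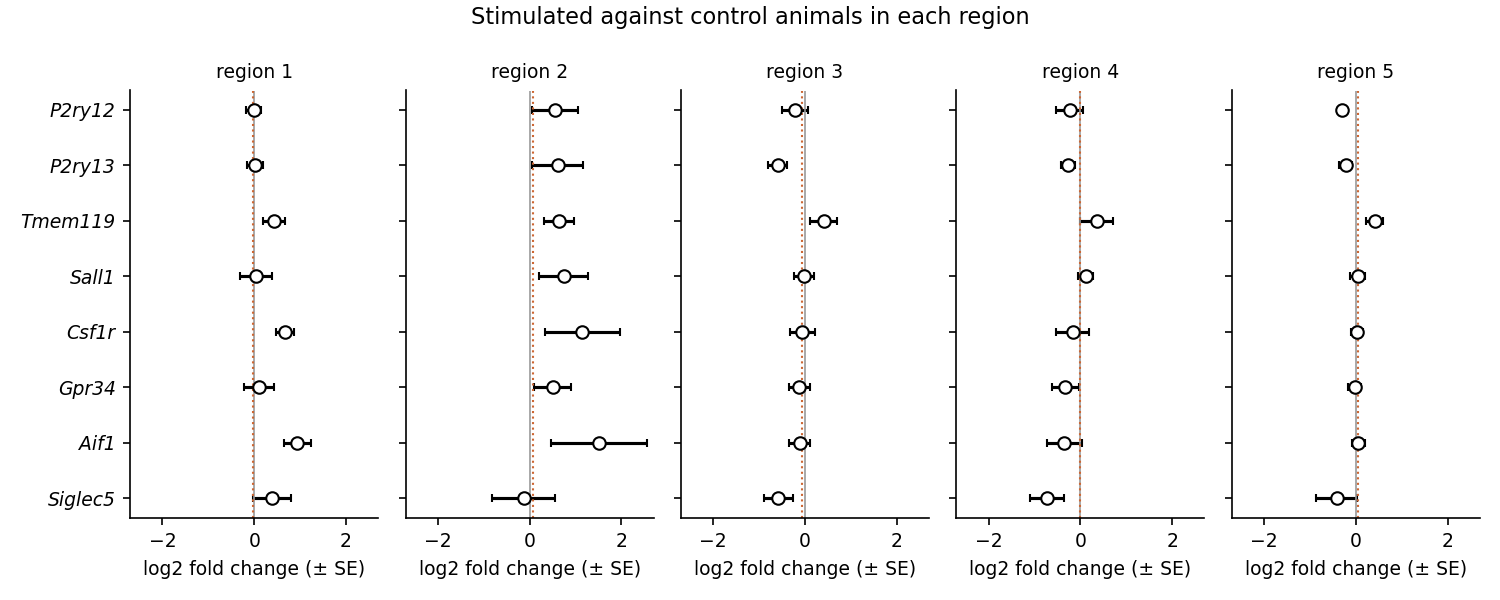
Log2 fold change with SE from limma of stimulated against control animals (2 against 2) for each gene in each region, with a dotted line at the median of all genes tested. None of the 40 differences passed the adjusted threshold, and the bars are widest in region 2, where Aif1 is at 1.51 (SE 1.04).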

How the data were processed

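RNA from 5 regions of 4 rats was prepared with a stranded total RNA kit. Per the labels and the paper's methods, the authors aligned reads to Rnor6 with TopHat2 2.1.0 and deposited FPKM values from Cufflinks 2.2.1, with values under 0.1 raised to 0.1. FastQC and MultiQC 1.6 are also named in the submitters' processing notes. The strand setting and the annotation's version are not given in the sources used here. The table holds no counts per gene. The read numbers the study states for the libraries were not used here, and precision is given as the spread among animals. Each of the 20 columns carries its sample's title, and 0 columns were without a sample.

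The log2 of FPKM, floored at 0.1, was used for genes that reached 1 FPKM in any library. Fold changes are thus on the scale of log2 floored FPKM. The tool was limma (version 3.58.1, R 4.3.3), with eBayes and its trend option. Regions were compared with a mean per region over all 20 libraries, stimulation within the 4 libraries of a region, and the difference of effects over all libraries. Genes with a Benjamini-Hochberg adjusted p under 0.05 across the genes tested are called. The region fits hold several libraries per animal. Deviations were taken from the mean of each region over control and stimulated animals, so they include any effect of stimulation. The same-animal libraries deviated together for regions 1 and 2 (correlations of 0.413 to 0.768) and for regions 4 and 3 (0.136 to 0.255). For regions 4 and 5 (-0.0883 to 0.105) and 5 and 3 (0.0224 to 0.18) they did so less or not at all. The fit with the animal as a block is given where it changed a call. Summaries and plots were made with pandas 2.3.3, numpy 2.4.6 and matplotlib 3.10.9 under Python 3.11.15. The fits were tested on simulated data in which 200 of 15210 genes were changed. At a log2 change of 1, the fit of region 4 against region 3 recovered 153 of them, with 6 false calls. The fit of stimulation in region 1 recovered 0 at a change of 1 and 148 at a change of 2. The fit of the difference of effects recovered 45 and 154. Simulated libraries were drawn independently, with a common spread per gene and no link between libraries of the same animal. Recovery and false calls in the real data may therefore differ.

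The 8 genes and all lists were chosen with earlier results of these data known. From each list at most the 3 genes with the highest mean level were named, whatever their change, and genes named by another rule are said to be so. Some genes that this rule names are not reported here. Alternatives were other floors and pseudocounts, other filters, 2 scalings, eBayes without trend, blocks, control animals only, and leaving out each animal. Leaving out the region 2 library of stimulated animal 2 was added after the data were seen. Coordinates are given only for RefSeq's promoters, in GRCr8, since no genome of the files' build was used here.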

Additional observations from a re-analysis of the deposited data

Results flagged for a closer look

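For each gene and region, the gap of the highest or lowest of the 4 libraries to its nearest neighbour was set against the whole range, and 7 of 40 sets were past Dixon's critical value for 4 samples. Chance flags about 1 in 20 groups. Of the 7, 6 were the region 2 library of stimulated animal 2, far above the other 3: Aif1 at 77.2 FPKM, Csf1r at 70.6 FPKM, P2ry12 at 25.5 FPKM, Gpr34 at 17.1 FPKM, P2ry13 at 7.17 FPKM and Sall1 at 6.73 FPKM. These 6 are from 1 library and are not independent. The seventh was Siglec5 in region 5 of control animal 2, at 2.01 FPKM against 0.880 to 1.06 FPKM in the other 3 libraries.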

How the results depend on the processing

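Of 150 recomputed counts of called genes, 121 were within 1.5 times the reported count and 29 were not. The 121 include every recount of 0 where the reported count was 0. This was so for stimulation, for its effect in region 1 minus region 2 and for region 4 against region 5. Nearly all of the 29 were in the comparisons with a call, so the 121 overstate how stable those were. Of 1200 recomputed values of single genes, 1052 kept their direction and their side of the threshold, 67 turned sign, 48 lost the call and 33 gained it. The cause of each change was not tested unless fewer samples or genes are named. For region 1 against region 2, where 1 gene was called, log2(FPKM + 1), a floor of 0.5 FPKM, no filter and quantile normalization called 0, the control animals alone 3, and leaving out the region 2 library of stimulated animal 2 called 7. For region 4 against region 3, where 4 were called, no filter called 1, eBayes without trend 2, and quantile normalization and upper-quartile scaling 7 each. For region 5 against region 3, where 1 was called, no filter, eBayes without trend and the control animals alone called 0. Leaving out 1 animal gave 5 to 8 called genes for white matter against cord, 0 to 7 for region 1 against region 2, 0 to 6 for region 4 against region 3, 0 to 4 for region 5 against region 3 and 0 to 1 for stimulation in region 2.

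With the animal as a replicate block, 8 genes were called for white matter against cord, 1 for region 1 against region 2, 5 for region 4 against region 3, 0 for region 4 against region 5 and 2 for region 5 against region 3. For the comparisons of regions, the share of all genes called with this block, without 1 animal or in the controls alone is not given here. Changes in the count of the 8 therefore cannot be set against it. For stimulation the numbers 1 and 2 only name the animals, and same-numbered deviations correlated by -0.213, -0.0974, -0.106, 0.321 and -0.164 in regions 1 to 5. The fit with this number as a replicate block called 0 of the 8 genes in every region, and so did the crossed pairing, an alternative chosen after seeing the data. Over all genes the block called 443 in region 5 and the crossed pairing 118 in region 4.

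After quantile normalization, the sign turned for Tmem119, region 1 versus region 2 (-0.089), P2ry12, region 4 versus region 5 (0.070), P2ry12, stimulation in region 1 (0.024), P2ry13, stimulation in region 1 (-0.041), Sall1, stimulation in region 1 (-0.037), Sall1, stimulation in region 3 (0.035), Csf1r, stimulation in region 3 (0.028) and Sall1, stimulation in region 5 (-0.0037). After upper-quartile scaling, the sign turned for P2ry12, region 4 versus region 5 (0.057), Tmem119, region 4 versus region 5 (0.024), P2ry12, stimulation in region 1 (0.018), Sall1, stimulation in region 3 (0.053), Csf1r, stimulation in region 3 (0.017) and Csf1r, stimulation in region 5 (-0.0023). With a floor at 0.5 FPKM, the sign turned for Siglec5, stimulation in region 2 (0.037). Without the region 2 library of stimulated animal 2, the sign turned for P2ry12, stimulation effect in region 1 minus region 2 (0.077), P2ry13, stimulation effect in region 1 minus region 2 (0.11), Tmem119, stimulation effect in region 1 minus region 2 (0.15), Csf1r, stimulation effect in region 1 minus region 2 (0.61), Gpr34, stimulation effect in region 1 minus region 2 (0.11) and Aif1, stimulation effect in region 1 minus region 2 (0.81).

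With 1 animal left out, the log2 differences of the genes below turned sign. For region 1 versus region 2 the range was -0.092 to 0.30 for Tmem119. For stimulation in region 1 the range was -0.19 to 0.17 for P2ry12, -0.14 to 0.17 for P2ry13, -0.42 to 0.48 for Sall1, -0.26 to 0.47 for Gpr34 and -0.079 to 0.85 for Siglec5. For stimulation in region 2 the range was -0.085 to 1.20 for P2ry12, -0.10 to 1.33 for P2ry13, -0.0062 to 1.02 for Gpr34 and -0.85 to 0.59 for Siglec5. For stimulation in region 3 the range was -0.51 to 0.068 for P2ry12, -0.31 to 0.27 for Sall1, -0.37 to 0.26 for Csf1r, -0.43 to 0.17 for Gpr34 and -0.35 to 0.11 for Aif1. For stimulation in region 4 the range was -0.59 to 0.13 for P2ry12, -0.016 to 0.72 for Tmem119, -0.028 to 0.25 for Sall1, -0.55 to 0.22 for Csf1r, -0.70 to 0.045 for Gpr34 and -0.79 to 0.10 for Aif1. For stimulation in region 5 the range was -0.17 to 0.24 for Sall1, -0.10 to 0.16 for Csf1r, -0.20 to 0.15 for Gpr34, -0.082 to 0.19 for Aif1 and -1.02 to 0.18 for Siglec5. For stimulation effect in region 1 minus region 2 the range was -1.39 to 0.26 for P2ry12, -1.33 to 0.12 for P2ry13, -0.81 to 0.37 for Tmem119, -1.84 to 0.42 for Sall1, -1.38 to 0.44 for Csf1r, -1.28 to 0.48 for Gpr34, -1.58 to 0.44 for Aif1 and -0.012 to 1.05 for Siglec5. The table holds no counts, and counting error was not estimated here. Siglec5, mostly under 1 FPKM, had the lowest level of the 8 genes.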
